A study of Mus musculus with 18 samples.

Results

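Nuclear-encoded subunits of the respiratory chain were followed in mouse sensory neurons after their axons were cut. The genes were chosen by symbol, as protein-coding genes of the GENCODE vM21 annotation whose names begin with Nduf (complex I and its assembly factors), with Uqcr (complex III), with Cox4 to Cox8 (complex IV) or with Atp5 (complex V), or are Sdha, Sdhb, Sdhc or Sdhd (complex II). Of the 47643 identifiers in the count tables, 93 met this rule. They fell into 38 genes of complex I, 8 Ndufaf assembly factors of complex I, 4 genes of complex II, 8 of complex III, 18 of complex IV and 17 of complex V. The rule uses gene symbols alone.

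The cells were dissociated dorsal root ganglia of CD-1 mouse embryos at e13.5, plated as a dense drop from which axons grow outwards (eDRG spot cultures), and were treated with FDU, which kills dividing cells. Control cultures were left uninjured and were collected at DIV7 (days in vitro). In all other groups the axons were cut with a blade, and collection followed at 5 times, given as hours post injury (HPI), namely 1, 3, 8, 16 and 24 HPI. Each of the 6 groups had 3 libraries, 18 in all, and all groups shared the strain, the embryonic age and the drug, with no genetic change named in the labels. The sources differ on whether injured cultures were cut or collected at DIV7, so the late groups may have been up to a day older than control, and age and time after injury cannot be told apart. The labels do not say whether the replicates of a group came from separate litters, so p-values measure the spread between these libraries, which may be technical.

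The respiratory chain is set in the inner mitochondrial membrane. Complexes I and II take electrons from NADH and succinate, complex III passes them to cytochrome c, complex IV hands them to oxygen, and complex V, the ATP synthase, uses the proton gradient made by complexes I, III and IV to produce ATP. A few core subunits are encoded by mitochondrial DNA, and most subunits are made from nuclear genes and imported. Neurons depend on this pathway for much of their ATP, and a regrowing axon needs ATP far from the cell body.

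Transcription factors bind near the start of many of these nuclear genes, NRF1 and the GABPA and GABPB1 pair (an ETS factor) being the best known, with YY1 and SP1 also described there. RefSeq promoter windows on GRCm38.p6, from 250 bases before to 50 bases after each start, were at hand for 76 of the 93 genes, as 81 windows. The central NRF1 letters CGCATGCG, which read the same on both strands, stood in 13.6% of these windows and in 2.5% of the 21230 windows of all protein-coding genes. The YY1 letters AAGATGGC, read on both strands, stood in 13.6% against 3.04% of all windows. The ETS letters CCGGAAGT stood in 6.17% against 5.15%, and the SP1 letters GGGCGG in 44.4% against 46.2%, again on both strands. None of these motifs lies within another. These are matches of letters, and binding was not measured. The motifs were chosen after the expression values below had been seen.

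The NRF1 letters were found in 11 members. In 7 of them they lie wholly within the 170 bases before the start, and these stretches are shown because Nrf1 mRNA was among the regulators that changed below. Capitals mark the NRF1 letters, and each stretch is written 5′ to 3′ on the strand of its gene. On GRCm38.p6 the stretches lie at chr15:102671048-102671217 on the minus strand for Atp5g2, chr16:84834977-84835146 on the minus strand for Atp5j, chr5:108434400-108434569 on the minus strand for Atp5k, chr5:115348959-115349128 on the minus strand for Cox6a1, chr17:56717592-56717761 on the plus strand for Ndufa11, chr2:36049339-36049508 on the minus strand for Ndufa8 and chr4:24897913-24898082 on the plus strand for Ndufaf4. The letters begin between 9 bases (Ndufa8) and 161 bases (Cox6a1) before the start. Atp5j has a second window, at chr16:84835576-84835875, for another start. That window lacks the NRF1 letters, and the stretch shown lies downstream of that start.
Atp5g2: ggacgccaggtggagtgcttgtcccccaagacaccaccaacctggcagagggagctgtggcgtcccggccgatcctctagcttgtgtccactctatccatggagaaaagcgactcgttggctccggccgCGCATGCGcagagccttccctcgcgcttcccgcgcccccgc
Atp5j: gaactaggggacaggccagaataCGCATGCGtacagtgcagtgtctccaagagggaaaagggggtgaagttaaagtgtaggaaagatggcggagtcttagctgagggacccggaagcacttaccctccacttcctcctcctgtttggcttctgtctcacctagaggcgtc
Atp5k: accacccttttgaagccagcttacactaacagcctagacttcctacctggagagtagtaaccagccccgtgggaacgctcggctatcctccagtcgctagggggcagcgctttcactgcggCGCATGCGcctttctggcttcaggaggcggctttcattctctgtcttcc
Cox6a1: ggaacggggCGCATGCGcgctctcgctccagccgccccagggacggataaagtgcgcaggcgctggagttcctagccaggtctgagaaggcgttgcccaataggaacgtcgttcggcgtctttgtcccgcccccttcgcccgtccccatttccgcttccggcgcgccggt
Ndufa11: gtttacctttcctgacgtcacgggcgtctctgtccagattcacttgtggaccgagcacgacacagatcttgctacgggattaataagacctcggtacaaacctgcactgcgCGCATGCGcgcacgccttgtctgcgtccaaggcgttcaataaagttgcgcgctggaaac
Ndufa8: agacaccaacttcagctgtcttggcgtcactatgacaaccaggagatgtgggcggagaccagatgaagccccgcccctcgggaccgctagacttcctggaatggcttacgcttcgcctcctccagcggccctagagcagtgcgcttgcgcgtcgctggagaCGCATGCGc
Ndufaf4: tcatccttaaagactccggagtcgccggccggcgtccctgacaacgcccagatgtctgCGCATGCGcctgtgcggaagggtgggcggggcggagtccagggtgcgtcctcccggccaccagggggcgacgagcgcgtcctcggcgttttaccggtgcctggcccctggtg

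Library size ranged from 9478891 counts on genes (8 HPI replicate 2) to 23082327 (3 HPI replicate 2), and no pair of libraries held identical counts. Between 14.9% and 24.1% of these counts lay on mitochondrially encoded genes, and residual ribosomal RNA took 0.67% to 2.15%, the most in 16 HPI replicate 1. Markers of sensory neurons summed to between 7688 and 9704 CPM (counts scaled to a common library size) in every library. The 3 neural progenitor markers used by the study summed to 3789 to 5165 CPM. The summed markers of other cell types stayed below 50 CPM, at 1.64 to 44.4 CPM for satellite glia, 1.11 to 8.33 for Schwann cells, 0.59 to 5.95 for neural crest, 1.495 to 18.4 for erythroid cells, 3.18 to 6.60 for myeloid cells, 0.32 to 1.33 for endothelial cells and 0.87 to 9.71 for fibroblasts.

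Respiratory chain genes were strongly expressed in the uninjured cultures. Levels are given as RPKM, scaled CPM per kilobase of exon, with libraries scaled by TMM. Of the 93 genes, 89 passed 1 CPM in at least 3 libraries and were tested. Their median RPKM in control was 48.7, against 4.36 over the 13771 genes tested, and the median exon length was 1675 bases against 4418. The median by complex was 48.5 in complex I, 53.4 in complex II, 69.8 in complex III, 97.1 in complex IV and 65.5 in complex V, while the Ndufaf factors, which help to build complex I and are not part of it, stood at 8.99. These values divide by all exonic bases of a gene, and with the longest transcript in place of all exons the medians were 59.35 in complex I, 66.6 in complex II, 99.0 in complex III, 139 in complex IV, 106.4 in complex V and 10.9 for the Ndufaf factors. Together the members took 1.00% ± 0.04 (SD, n = 3) of the counts on genes in control.

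Within each complex the levels spread widely. In complex I, Ndufa4, now placed by many with complex IV, had the highest level with 139.4 ± 18.8 RPKM (SD, n = 3 as for all levels that follow), and Ndufb2, an accessory subunit, the lowest with 1.39 ± 0.39. Among core subunits of complex I, which carry the flavin and the iron-sulphur clusters or shape the quinone site, Ndufv2 stood at 61.8 ± 6.8, Ndufs8 at 55.9 ± 3.8, Ndufv1 at 53.6 ± 2.3, Ndufs7 at 36.1 ± 1.9, Ndufs3 at 23.8 ± 1.5 and Ndufs1 at 17.2 ± 1.4. The order among these depends on the exon length used, since with the longest transcript Ndufs1 stood at 52.3 and Ndufs3 at 49.5.

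The 4 subunits of complex II, the succinate dehydrogenase, stood closer together. Sdhd and Sdhc anchor the complex in the membrane and had 75.8 ± 5.3 and 30.8 ± 0.5 RPKM. Sdhb, the iron-sulphur subunit, had 66.5 ± 3.8, or 120.8 with the longest transcript against 75.8 for Sdhd, and Sdha, the flavoprotein, 40.3 ± 1.0. In complex III the small subunit Uqcr11 led with 182.9 ± 30.0 and Uqcrq was lowest with 12.5 ± 0.03. The 2 core proteins Uqcrc1 and Uqcrc2 had 61.8 ± 3.5 and 43.2 ± 3.6, and the Rieske iron-sulphur protein Uqcrfs1 77.7 ± 7.7. The catalytic head of the ATP synthase gave some of the highest levels, with 353.4 ± 19.1 for Atp5a1 and 310.6 ± 16.0 for Atp5b, against 96.7 ± 10.7 for Atp5c1, the central stalk, and 4.43 ± 0.98 for Atp5l, the lowest of complex V. Among the assembly factors Ndufaf1 had 16.6 ± 1.7 and Ndufaf2 was lowest with 3.40 ± 0.72.

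**Figure D1:**
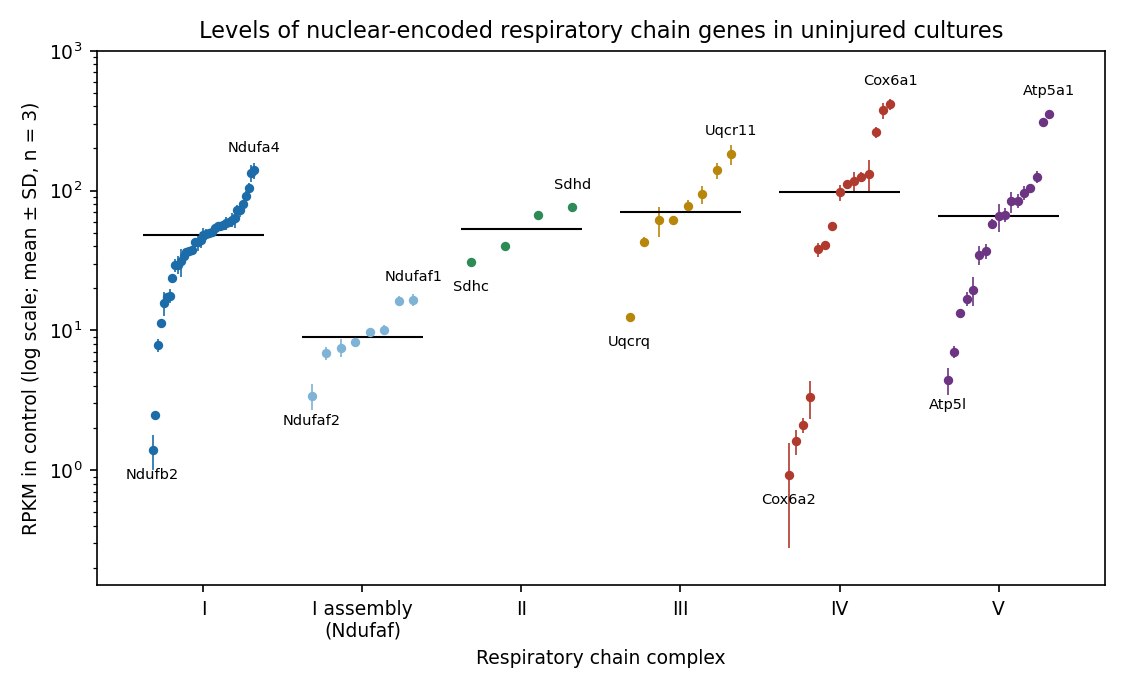
Level of each tested respiratory chain gene in the uninjured cultures, by complex. Points are means and bars SD of 3 libraries in RPKM on a log axis, black lines are the medians of the complexes, and the highest and lowest gene of each complex, by the length of all exons, is named. Medians run from 8.99 for the Ndufaf factors to 97.1 for complex IV.

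Several complex IV subunits exist as paralogues used by different tissues, and the widely used forms carried nearly all of the signal. Cox6a1, the form of most tissues, had 414.9 ± 37.7 RPKM against 0.92 ± 0.65 for Cox6a2, the form of heart and skeletal muscle. Cox4i1 had 125.9 ± 9.9 and Cox4i2, described in lung and in low oxygen, 1.62 ± 0.34. Cox6b1 had 261.5 ± 21.9 against 3.33 ± 1.02 for the testis form Cox6b2. Cox7a2 had 97.1 ± 12.2 and Cox7a2l, which takes part in supercomplexes, 55.9 ± 4.0, with the muscle form Cox7a1 at 2.10 ± 0.26. Cox8a had 374.2 ± 49.7, and Cox7b 131.5 ± 35.2. The 4 genes that were not tested are all such alternative forms. Counts per library ran from 0 to 1 for Cox8c, 0 to 4 for Cox8b, 2 to 13 for Cox7b2 and 2 to 27 for Ndufa4l2, a relative of Ndufa4 known as a target of HIF. The 3 genes for the proton-carrying c ring of the ATP synthase, whose mature proteins are alike, were all expressed, Atp5g3 at 67.1 ± 7.7, Atp5g1 at 36.9 ± 4.4 and Atp5g2 at 16.9 ± 1.9. Genes with near-identical copies elsewhere in the genome lose reads that map to more than 1 place, and 14.7% to 19.9% of the entries of each library were of that kind, so the low levels of single subunits are uncertain.

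The share of counts on respiratory chain genes moved little after axotomy. It was 1.02%, 1.03% and 0.953% in the 3 control libraries and 1.08%, 1.08% and 0.959% at 1 HPI. At 3 HPI it was 1.03%, 1.10% and 1.02%, and at 8 HPI 0.922%, 1.06% and 0.986%. At 16 HPI it was 0.926%, 1.118% and 0.996%, and at 24 HPI 0.978%, 1.08% and 0.978%. Every injured group overlapped the control libraries. Group means lay between 0.990% (8 HPI) and 1.05% (3 HPI), with control at 1.00% and SDs of 0.04 to 0.10.

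After injury 0 of 89 respiratory chain genes changed by more than 2-fold with an adjusted p under 0.05 at 1, 3, 8, 16 or 24 HPI. At these times 0.029%, 0.029%, 0.537%, 1.49% and 0.821% of all genes did. Few members passed the p threshold at any size of change. In each comparison a gene was called when edgeR's quasi-likelihood test, with the replicate number as a batch term, gave a Benjamini-Hochberg adjusted p under 0.05 over all genes tested. At 1 HPI 0 of 89 members were called, beside 0.276% of all genes, and at 3 HPI 0 of 89, beside 0.189%. The unadjusted p was under 0.05 for 6 and 17 of them, 6.74% and 19.1% of the members beside 12.8% and 14.5% of all genes, and DESeq2 called 0 at both times. At 8 HPI 2 members were called, beside 7.68% of all genes. Of them 1 was higher and 1 lower, beside 3.78% and 3.90% of all genes in these directions. At 16 HPI, when 22.2% of all genes were called, 1 of 89 members was called, and it was lower, as were 11.5% of all genes. At 24 HPI 2 of 89 were called, beside 15% of all genes, and both were higher, beside 5.99%.

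The time with the most called genes in the whole transcriptome was 16 HPI. There an unadjusted p under 0.05 was reached by 2.25% of the members and by 33.6% of all genes. The 3 injured and 3 control libraries did not overlap for 2 of 89 members, both lower, while this was the case for 20.4% of all genes (lower in 9.49% of all genes). The members' log2 fold changes ran from -0.30 (Ndufb2) to 0.32 (Cox7a1), with a median of 0.01 and a median size of 0.05, against 0.14 over all genes. The members were measured with smaller errors than most genes, their median SE being 0.067 against 0.089 over all genes. The 95% interval of the change lay within 1.5-fold in either direction for 84 of 89 members (94.4%) and for 74.0% of all genes, and within 2-fold for all 89 members. Markers of sensory neurons summed to 7688 to 8485 CPM at 16 HPI and to 8868 to 9406 CPM in control. Their part in the members' values was not tested. In bulk cultures, fewer cells of a type and less RNA per cell cannot be told apart.

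**Figure D2:**
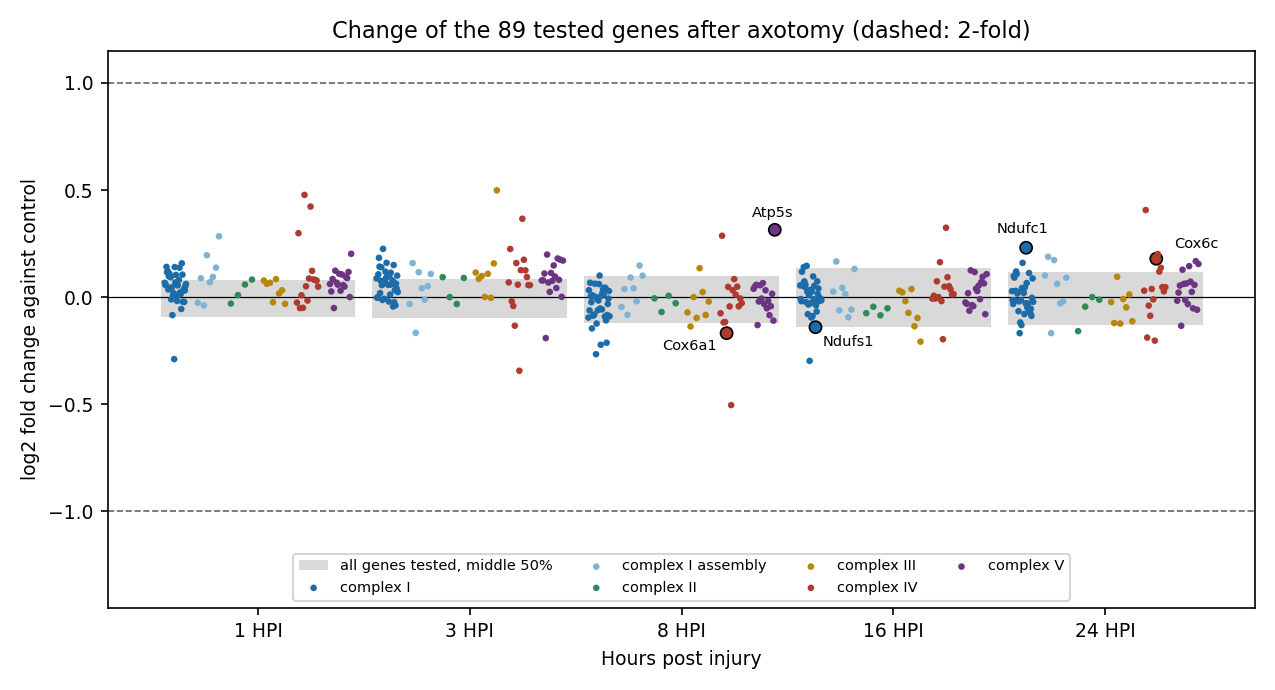
log2 fold change against control of each of the 89 tested genes at 5 times after injury. Each point is 1 gene, coloured by complex, named and outlined where the adjusted p was under 0.05; the grey band holds the middle 50% of all 13771 genes and the dashed lines mark 2-fold. No gene reaches 2-fold, and the named genes are Cox6a1 and Atp5s at 8 HPI, Ndufs1 at 16 HPI and Ndufc1 and Cox6c at 24 HPI.

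The early times showed a small common shift. The median log2 fold change of the members was 0.06 at 1 HPI, with 72 of 89 above 0, and 0.08 at 3 HPI, with 71 of 89 above 0, where 50.7% and 50% of all genes were above 0. The shift was not particular to the members. At 1 and 3 HPI, 61 and 59 of 77 mitochondrial ribosome genes, 35 and 33 of 41 other assembly factors and 18 and 17 of 20 carrier, import and inner membrane genes lay above 0. Genes of pyruvate dehydrogenase and the citric acid cycle had 6 and 10 of 16 above 0. Transcriptional regulators had 5 and 3 of 12, and mitochondrially encoded subunits 9 and 1 of 10. Among the members the median lay above 0 in each complex. It ranged from 0.03 (complex II) to 0.09 (Ndufaf factors) at 1 HPI and from 0.04 (complex II) to 0.10 (complex III) at 3 HPI. Within replicate numbers 1, 2 and 3 the median over all members was 0.06, 0.10 and 0.01 at 1 HPI and -0.05, 0.10 and 0.16 at 3 HPI. All 3 thus lay above 0 at 1 HPI, and replicate 1 lay below it at 3 HPI. By complex, replicate 3 at 1 HPI gave -0.06 in complex II and -0.02 in the Ndufaf factors. Replicate 1 at 3 HPI ran from -0.07 (complex I) to 0.04 (Ndufaf factors), with only the Ndufaf factors above 0. Both times were set against the same control libraries, and no single gene passed the test. Later medians lay nearer to 0, with -0.02, 0.01 and 0.01 at 8, 16 and 24 HPI and 38, 47 and 46 of 89 members above 0.

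Several core subunits had values near 0 at 16 HPI. There the log2 fold change was -0.02 for Atp5a1 (95% interval -0.12 to 0.07), -0.03 for Atp5b (-0.12 to 0.06), -0.01 for Cox4i1 (-0.11 to 0.10) and -0.01 for Ndufv1 (-0.09 to 0.08). Atp5a1 is an example of what these intervals rest on. Its control libraries held 1121, 1160 and 1043 scaled CPM and its 16 HPI libraries 1075, 1193 and 1004. The groups overlapped and the third replicate was the lowest in each. All 4 genes of complex II lay slightly below control at 16 HPI, between -0.08 (Sdhc) and -0.04 (Sdhb), and none passed the test. Sdha had the lowest value of complex II at 24 HPI, with -0.16 (SE 0.064, adjusted p = 0.0997 in edgeR's quasi-likelihood test). Uqcrfs1 was -0.14 at 16 HPI (SE 0.050, adjusted p = 0.0576 in the same test).

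Ndufs1, the largest subunit of complex I and carrier of several of its iron-sulphur clusters, was the member called at 16 HPI. It held 149.7, 140.1 and 127.4 scaled CPM in control and 135.5, 129.6 and 113.8 at 16 HPI. The groups overlapped, yet each 16 HPI library lay below the control library of its number. The log2 fold change was -0.14 (SE 0.043, adjusted p = 0.0209 in edgeR's quasi-likelihood test), a level 9.27% below control, with -0.14, -0.11 and -0.16 within the 3 replicate numbers. At 8 HPI it still held 147.4, 143.9 and 130.1, and from 8 to 16 HPI it fell by 0.16 on the log2 scale (SE 0.043, adjusted p = 0.0170). The call against control was lost without control replicates 1 or 3 or 16 HPI replicates 1 or 3, with adjusted p between 0.0518 and 0.0928. The gene lies at chr1:63143596-63176833 (GRCm38, minus strand), and 489 exonic bases are shared with the lincRNA Ino80dos on the other strand, whose reads cannot be separated here because the strand setting of the counting is not given in the sources used here.

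At 8 HPI the called members moved in opposite directions. Cox6a1, an accessory subunit of complex IV, held 276.8, 321.8 and 275.1 scaled CPM in control and 232.1, 282.6 and 262.7 at 8 HPI. Each library lay below the control library of its number, most clearly in replicate 1. The log2 fold change was -0.17 (SE 0.051, adjusted p = 0.0491 in edgeR's quasi-likelihood test), or 11.0% below control. By 16 HPI the gene was back at 290.5, 312.7 and 269.8, a rise of 0.17 over 8 HPI (SE 0.052, adjusted p = 0.0297). The 8 HPI call was kept only without 8 HPI replicate 3 (adjusted p = 0.0471) and was lost when any of the other 5 libraries of the comparison was left out, with adjusted p between 0.0711 and 0.275.

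Atp5s, named coupling factor B and also known as Dmac2l, was the other gene called at 8 HPI. It held 15.6, 14.5 and 12.8 scaled CPM in control and 19.3, 15.6 and 17.8 at 8 HPI. The lowest 8 HPI library stood just below the highest control library. The log2 fold change was 0.31 (SE 0.082, adjusted p = 0.0220 in edgeR's quasi-likelihood test), 24.3% above control, the largest change among called members. It was lost without control replicates 1 or 3 or 8 HPI replicates 1 or 3, with adjusted p between 0.0636 and 0.172.

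Both members called at 24 HPI were higher. Ndufc1, a small accessory subunit of complex I, held 49.3, 45.9 and 36.9 scaled CPM in control and 54.0, 50.1 and 49.7 at 24 HPI. These groups did not overlap. The log2 fold change was 0.23 (SE 0.068, adjusted p = 0.0254 in edgeR's quasi-likelihood test), with 0.13, 0.13 and 0.43 within the replicate numbers. Replicate 3 thus gave the largest difference, and the call was lost without control replicate 3 (0.17, adjusted p = 0.163) or 24 HPI replicate 3 (0.17, adjusted p = 0.171). Cox6c, a small subunit of complex IV, held 151.9, 134.7 and 119.1 in control and 156.6, 157.1 and 144.7 at 24 HPI, and the groups overlapped. It rose by 0.18 (SE 0.059, adjusted p = 0.0446), a call kept only without control replicate 1 (adjusted p = 0.00973) and lost without any of the other 5 libraries, with adjusted p between 0.0649 and 0.211. Exons of Cox6c share 250 bases with Vps13b on the other strand.

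Between successive late times, 5 of 89 members differed from 8 to 16 HPI, beside 15.2% of all genes, and 0 of 89 from 16 to 24 HPI, beside 9.82%. For the later step 7 members (7.87%) had an unadjusted p under 0.05, beside 23.8% of all genes, and DESeq2 called 0. In the earlier step 2 members rose, beside 7.30% of all genes, and 3 fell, beside 7.86%. This split depended on the scaling and the filter, with 4 higher and 0 lower under upper-quartile factors and 3 higher and 0 lower with a filter of 10 counts over all libraries. Apart from Ndufs1 and Cox6a1, the genes of the earlier step were Ndufa3, Ndufaf7 and Uqcrfs1. Ndufa3, an accessory subunit of complex I, held 33.8, 44.0 and 41.5 scaled CPM at 8 HPI and 44.9, 50.4 and 49.5 at 16 HPI. These groups did not overlap, and the rise was 0.29 (SE 0.081, adjusted p = 0.0192 in edgeR's quasi-likelihood test). It was lost without 8 HPI replicate 1 (0.20, adjusted p = 0.156) or 16 HPI replicate 3 (0.25, adjusted p = 0.0878). Ndufaf7, a methyltransferase that acts during complex I assembly, held 37.6, 40.2 and 35.9 at 8 HPI and 31.97, 33.6 and 32.7 at 16 HPI, again without overlap, and fell by 0.21 (SE 0.059, adjusted p = 0.0202). Uqcrfs1 held 109.6, 110.4 and 101.8 at 8 HPI and 103.4, 97.9 and 87.7 at 16 HPI, with overlap, and fell by 0.16 (SE 0.051, adjusted p = 0.0364). The Ndufaf7 call was kept only without 16 HPI replicate 3 (adjusted p = 0.0202), and the Uqcrfs1 call was lost without any 1 of the 6 libraries (adjusted p between 0.0509 and 0.192).

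**Figure D3:**
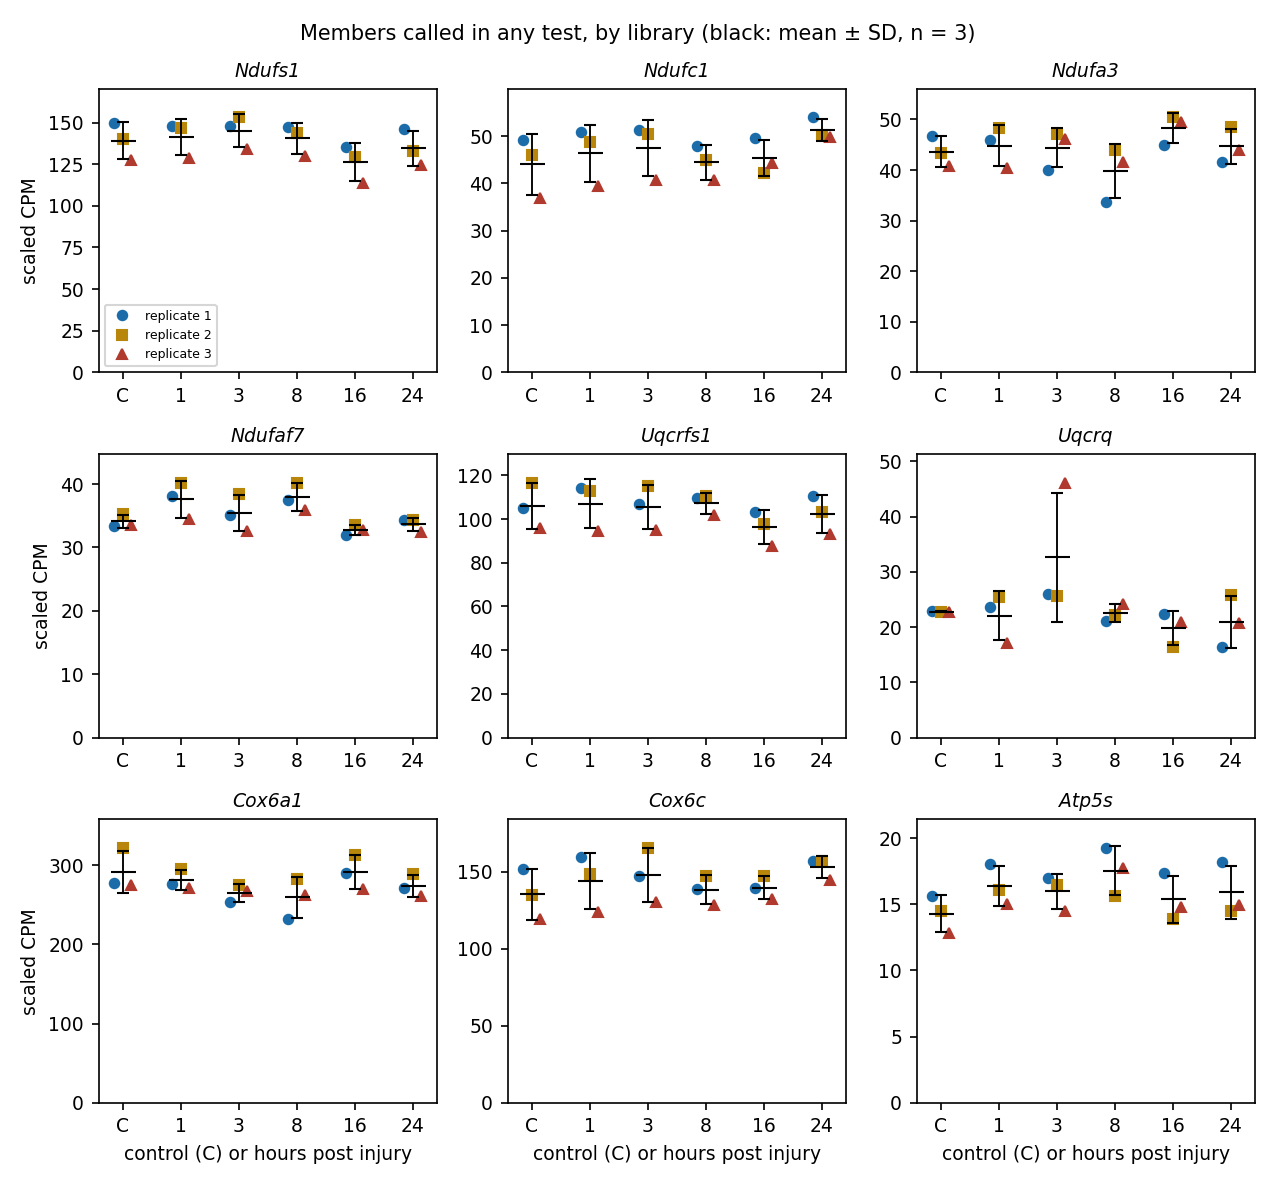
Scaled CPM of the 9 respiratory chain genes called in any of the tests, by library. Symbols mark the replicate number, black bars the mean ± SD of 3 libraries, and the axes start at 0. Replicate 3 of Ndufs1 is the lowest library in every group, and Uqcrq has a single high library at 3 HPI, with 46.2 scaled CPM.

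Over the whole time course, an F test of the 5 time terms in the same edgeR model called 3 of 89 members, beside 30% of all genes. They were Ndufs1 (adjusted p = 0.0118), Ndufaf7 (adjusted p = 0.0300) and Uqcrq (adjusted p = 0.0404). Uqcrq, a small subunit of complex III near its quinone site, rested on 1 library. It held 26.0, 25.7 and 46.2 scaled CPM at 3 HPI and between 16.3 and 25.8 in all other groups. Without 3 HPI replicate 3 its adjusted p was 0.434 and its log2 fold change at 3 HPI fell from 0.50 to 0.16. The Ndufs1 call was lost only without 16 HPI replicate 3 (adjusted p = 0.0644), and the Ndufaf7 call was kept in 8 of the 18 fits that each left out 1 library (adjusted p between 0.0277 and 0.0888).

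For most members the replicate numbers differed more than the time points did. The 2 batch terms of the same fit were called for 70 of 89 members, beside 60.9% of all genes. This test was added after the data had been seen. For each gene the span was taken as the distance between the highest and the lowest mean of log2 CPM. The time span compares 6 means of 3 libraries and the replicate span 3 means of 6 libraries, so the 2 spans are not alike in noise. The median span was 0.16 over the 6 groups and 0.20 over the 3 replicate numbers for the members, and 0.28 and 0.22 over all genes. The span over time was the larger for 27 of 89 members and for 8254 of 13771 genes. For 87 of 89 members the span over time was under 0.5, as for 78.5% of all genes. Cox7b, a complex IV subunit, had a span of 0.65 over replicate numbers and of 0.14 over time. Across the 18 libraries the median Pearson r between members was 0.48 over 3916 pairs of genes. It was 0.37 once the means of time and replicate number had been removed. Pairs share libraries and sequencing depth, so these values are descriptions. No such value was computed over other genes, so they cannot be read as particular to the members.

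Several factors known to act on these genes changed at 16 HPI. Of 12 transcriptional regulators of the respiratory chain, all of them tested, 5 rose and 1 fell at 16 HPI. Over all 13771 genes, 1477 were called higher and 1578 lower, 22.2% in either direction. This list, too, was chosen with earlier results of these data known. Nrf1, the transcription factor whose letters are capitalised in the promoters above, held 17.2, 17.95 and 23.2 scaled CPM in control and 23.2, 24.7 and 25.9 at 16 HPI. The lowest 16 HPI library lay just above the highest control library. The log2 fold change was 0.33 (SE 0.082, adjusted p = 0.00512 in edgeR's quasi-likelihood test). Gabpb1, a subunit of the ETS factor GABP, held 13.1, 11.1 and 14.1 in control and 19.6, 15.03 and 16.7 at 16 HPI, without overlap, a rise of 0.40 (SE 0.099, adjusted p = 0.00490). Its partner Gabpa held 25.003, 19.3 and 19.8 in control and 28.1, 24.4 and 26.7 at 16 HPI, with overlap, and rose by 0.31 (SE 0.082, adjusted p = 0.00933). Exons of Gabpa share 397 bases with those of the member Atp5j on the other strand.

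The coactivator Ppargc1b rose by 0.41 at 16 HPI (SE 0.123, adjusted p = 0.0202) and Tfam, which packs and transcribes mitochondrial DNA, by 0.21 (SE 0.064, adjusted p = 0.0222), while Pprc1, a relative of Ppargc1b, fell by 0.30 (SE 0.092, adjusted p = 0.0233; all from edgeR's quasi-likelihood test). Ppargc1a, the best known coactivator of mitochondrial genes, was not called and had a log2 fold change of -0.23 (SE 0.108, adjusted p = 0.141). Esrra, a nuclear receptor that works with it, had 0.12 (SE 0.084, adjusted p = 0.330). Nrf1 and Gabpb1 kept their calls without each of the 6 libraries. The call for Gabpa was lost when control replicate 3 or 16 HPI replicate 3 was left out (highest adjusted p = 0.0620), Tfam without control replicate 1 or 16 HPI replicates 1 or 3 (highest 0.121), Ppargc1b without control replicates 1 or 3 or 16 HPI replicate 1 (highest 0.128), and Pprc1 without control replicates 1 or 2 or 16 HPI replicates 1 or 2 (highest 0.188).

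At 24 HPI 1 of the 12 regulators was called against control, beside 15% of all genes. It was Pprc1, and it was lower. From 16 to 24 HPI 4 of the 12 were called, all lower, beside 9.82% of all genes called in either direction. In this step Ppargc1b fell by 0.65 (SE 0.124, adjusted p = 0.00187), Gabpb1 by 0.46 (SE 0.098, adjusted p = 0.00436), Nrf1 by 0.33 (SE 0.081, adjusted p = 0.0116) and Gabpa by 0.27 (SE 0.081, adjusted p = 0.0385), in edgeR's quasi-likelihood test. Gabpa lost this call without each of the 6 libraries (adjusted p between 0.0638 and 0.148), and Nrf1 without 16 HPI replicate 1 (adjusted p = 0.0956) or 24 HPI replicate 1 (adjusted p = 0.0717).

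**Figure D4:**
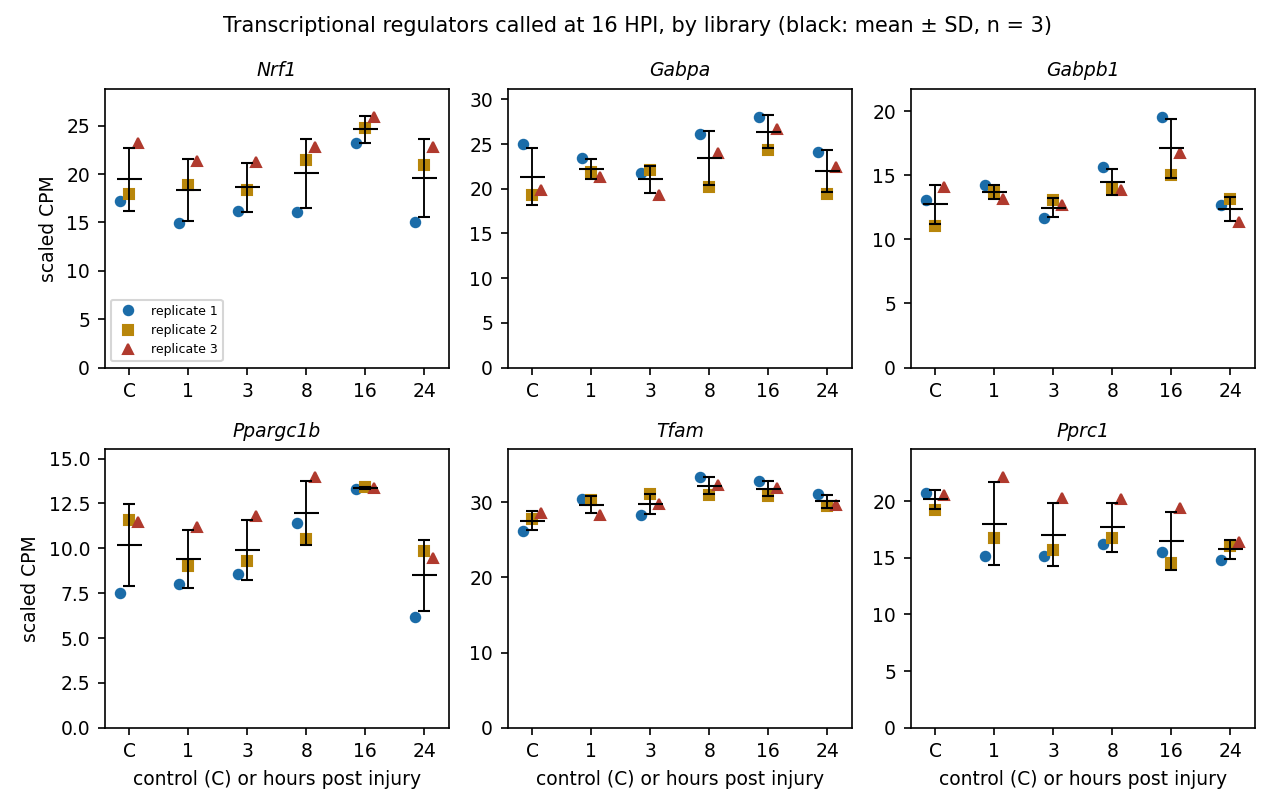
Scaled CPM by library of the 6 transcriptional regulators called at 16 HPI against control. Symbols mark the replicate number and black bars the mean ± SD of 3 libraries. Gabpb1, Nrf1, Gabpa and Ppargc1b are highest on average at 16 HPI and lower at 24 HPI, and Pprc1 is highest in control.

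Members with the NRF1 letters in their promoter window had small changes at 16 HPI as well. The 11 of them had a median log2 fold change of 0.04, from -0.07 (Uqcrc1) to 0.15 (Ndufa8), with 9 above 0, and the 63 tested members with a window but without the letters had a median of 0.01, with 32 above 0. For the YY1 letters the medians were 0.05 over 11 members and 0.01 over 63. With and without the ETS letters they were alike, at 0.01 over 5 members and 0.01 over 69. For the SP1 letters they were 0.03 over 34 members and 0.01 over 40. No member with a window was called at 16 HPI, and Ndufs1, the member called there, had no window and was outside this comparison. Cox6a1, with its letters 161 bases before the start, had 0.00 at 16 HPI (SE 0.051).

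Other lists of mitochondrial genes, chosen with earlier results of these data known, held few called genes at 16 HPI, when 22.2% of all genes were called. Of 77 tested proteins of the mitochondrial ribosome, 1 rose, Mrps31 with 0.34 (SE 0.085, adjusted p = 0.00568). Among 10 tested mitochondrially encoded subunits the lowest adjusted p at 16 HPI was 0.304. The median change of these 10 on the log2 scale was -0.11 at 16 HPI and 0.14 at 24 HPI. Of 41 tested assembly factors other than the Ndufaf genes, 2 rose and 1 fell, with Cox11, which delivers copper to complex IV, changing most (0.51, SE 0.157, adjusted p = 0.0220). Bcs1l, which inserts Uqcrfs1 into complex III, fell by 0.40 (SE 0.093, adjusted p = 0.00351). Of 16 genes of pyruvate dehydrogenase and the citric acid cycle, 1 rose and 1 fell, and the median change of the list was -0.04. Of 20 carriers, import and inner membrane genes, the chaperone Hspa9 rose by 0.17 (SE 0.050, adjusted p = 0.0148) and the fusion protein Opa1 fell by 0.15 (SE 0.050, adjusted p = 0.0394). Cycs, the electron carrier cytochrome c, and Cyc1, the cytochrome c1 of complex III, were not called, with 0.07 (SE 0.059) and -0.07 (SE 0.060). All of these p-values came from edgeR's quasi-likelihood test.

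**Figure D5:**
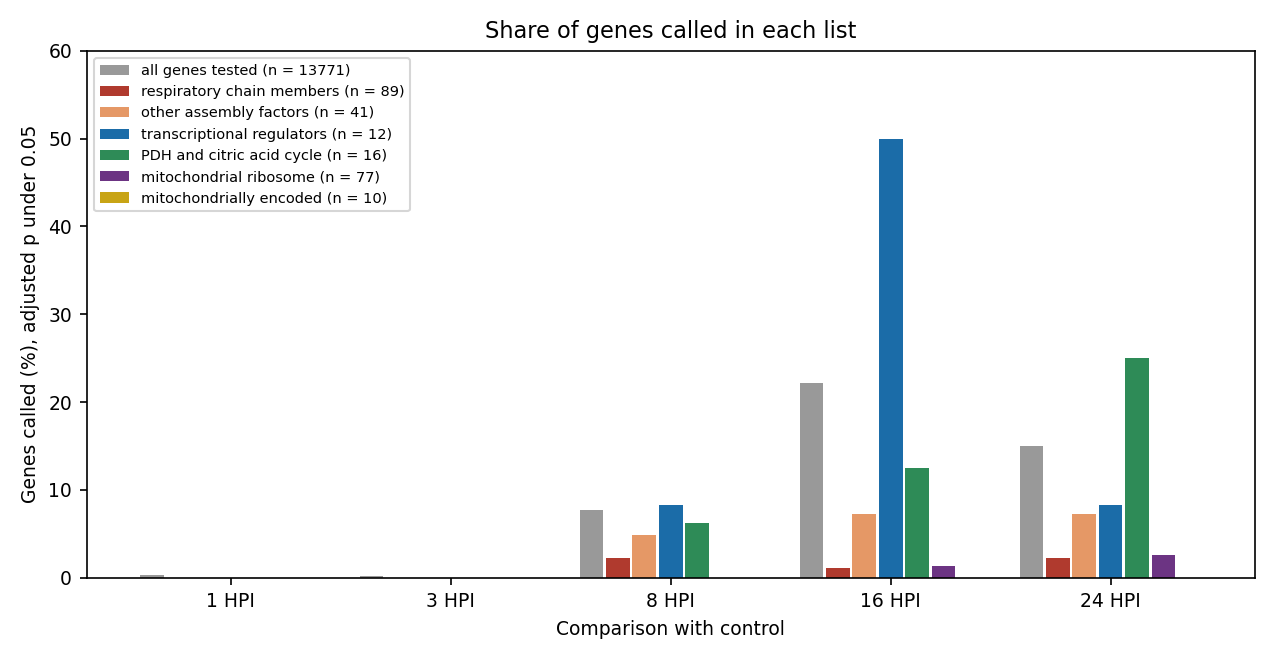
Share of tested genes with an adjusted p under 0.05 against control, at each time after injury, for the respiratory chain genes, for all genes tested and for 5 other lists; n is the number of genes tested and absent bars are 0%. At 16 HPI 1 of 89 respiratory chain genes was called, beside 22.2% of all genes and 6 of 12 transcriptional regulators. The lists were chosen with earlier results of these data known.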

How the data were processed

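RNA was sequenced after ribosomal RNA depletion in 18 libraries, 3 for each of 6 groups, and groups came from the labels. The deposited values are raw counts per gene. According to the paper's methods, reads were trimmed with cutadapt, aligned with STAR to mm10 and counted with featureCounts. The submitters' processing notes name FastQC, STAR, HTSeq and DESeq2, and each table closes with 5 entries named as by htseq-count. Those entries, which include reads on no gene and reads on more than 1 place, were left out of library sizes. All 5 together made up 25.2% to 33.2% of the total of these entries and the counts on genes. Names, positions and exon lengths came from GENCODE vM21 on GRCm38, which matched 47224 of 47643 identifiers. A second Atp5o entry of vM21 was not analysed here, leaving 93 of 94 genes.

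Counts were analysed in R 4.3.3 (edgeR 4.0.16 with limma 3.58.1, and DESeq2 1.42.0), and promoters and figures in Python 3.11.15. After TMM scaling, tests were made on the 13771 genes that exceeded 1 CPM in 3 or more libraries. One quasi-likelihood model held time point and replicate number for all 18 libraries. Tests were two-sided with Benjamini-Hochberg adjustment over all genes, 0.05 being the threshold. Scaled CPM and RPKM use TMM-scaled library sizes, and RPKM the union of exons. Fold changes came from the fitted model at edgeR's default prior count. A prior count of 2 was used for the log2 CPM behind the within-replicate differences, spans and correlations. Replicate numbers were taken as pairs from the data, since deviations from group means of same-numbered libraries of different groups correlated by 0.48 to 0.77 (45 pairs) and those of different numbers by -0.58 to -0.04 (90 pairs). Over the members alone the ranges overlapped, at -0.16 to 0.84 (mean 0.49) and -0.79 to 0.57 (mean -0.25). Deviations within a group sum to 0, so when same numbers correlate, negative values between different numbers are partly built in. The scripts were tested on simulated data.

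The members and all gene lists were chosen with earlier results of these data known. Genes named with values were the called members with the highest and lowest change per complex and comparison, the highest and lowest level per complex, core subunits, the paralogue sets, 7 named regulators and carriers, and per list the called gene with the largest change at 16 HPI. Members called in tests of successive times or of any time, Cox7b, and further genes of the lists were named after their values were seen. Alternatives were other size factors, DESeq2, other filters, RPKM over the longest transcript, no replicate block, correction for GC content and length, the 2 compared groups alone, a 2-fold rule and each library left out. Exons of 32 members overlap those of another gene. Results for some genes are not reported here.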

Additional observations from a re-analysis of the deposited data

Results flagged for a closer look

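The change from control differed between 8 and 16 HPI for 5 respiratory chain genes, by a test of the difference itself in edgeR's quasi-likelihood model. The difference, 16 HPI minus 8 HPI on the log2 scale, was -0.21 for Ndufaf7, -0.16 for Ndufs1 and -0.16 for Uqcrfs1, and 0.29 for Ndufa3 and 0.17 for Cox6a1. Each pointed the same way in 3 of 3 replicate numbers, as did 32 of 89 members and 6601 of 13771 genes. The test used these same libraries with replicate number as a term, so this agreement is no further support. The share of members called, 5 of 89, stands beside 15.2% of all genes. Of 15 alternatives, the call was kept in 12 for Ndufa3, 10 for Cox6a1, 8 for Ndufs1, 5 for Ndufaf7 and 3 for Uqcrfs1.

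The change from control also differed between 16 and 24 HPI for 4 of 12 regulators by the same kind of test, beside 9.82% of all genes. The difference, 24 HPI minus 16 HPI, was -0.27 for Gabpa, -0.46 for Gabpb1, -0.65 for Ppargc1b and -0.33 for Nrf1. Of 15 alternatives, the call was kept in 6 for Gabpa, 14 for Gabpb1, 14 for Ppargc1b and 12 for Nrf1.

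Without 1 library, the 8 to 16 HPI call for Ndufs1 was lost when 8 HPI replicate 3 or 16 HPI replicates 1 or 3 were left out (adjusted p up to 0.0736), and that for Cox6a1 when 8 HPI replicate 1 or 16 HPI replicates 1 or 2 were left out (adjusted p up to 0.199), in edgeR's quasi-likelihood test.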

How the results depend on the processing

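Counts of members called in the main tests were 0, 0, 2, 1 and 2 at 1, 3, 8, 16 and 24 HPI, 5 from 8 to 16 HPI, 0 from 16 to 24 HPI and 3 over all times, so a change of 1 gene moves them. At 8 HPI the count was 1 with DESeq2 size factors, the DESeq2 Wald test, a filter of 10 counts or the correction for GC content and length, and 0 without the replicate block, with the 2 groups alone or under the 2-fold rule. At 16 HPI it was 0 with upper-quartile factors, the filter of 10 counts, no block, the 2 groups alone or the 2-fold rule, and 2 with the GC and length correction. At 24 HPI it was 0 without the block or under the 2-fold rule, 1 with the GC and length correction and 4 with the 2 groups alone. From 8 to 16 HPI it was 3 with the Wald test or the filter of 10 counts, and 0 without the block or under the 2-fold rule. From 16 to 24 HPI it was 1 with the GC and length correction or the 2 groups alone. Over all times it was 7 with upper-quartile factors, 8 with the GC and length correction and 0 without the block. Without the replicate block the calls over all genes fell too, to 0.443% at 8 HPI, 5.13% at 16 HPI, 1.11% at 24 HPI and 1.5% from 8 to 16 HPI. Shares over all genes are not given in this section for the other settings or for fits without 1 library. Those counts therefore cannot be read as particular to the members.

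With 1 library left out, the counts were 0 to 0 at 1 and 3 HPI, 0 to 2 at 8 HPI, 0 to 3 at 16 HPI, 0 to 5 at 24 HPI, 1 to 4 from 8 to 16 HPI, 0 to 1 from 16 to 24 HPI and 1 to 7 over all times. The most at 16 HPI, at 24 HPI and over all times came without control replicate 1. The members' median log2 fold change then ran from 0.021 to 0.11 at 1 HPI, 0.04 to 0.12 at 3 HPI, -0.05 to 0.02 at 8 HPI, -0.02 to 0.06 at 16 HPI, -0.016 to 0.058 at 24 HPI, -0.004 to 0.06 from 8 to 16 HPI and -0.005 to 0.03 from 16 to 24 HPI. At 24 HPI it was -0.033 with the GC and length correction. Of 15 alternatives, Atp5s kept its call in 8, Cox6a1 at 8 HPI in 5, Ndufs1 at 16 HPI in 7, Ndufc1 in 11 and Cox6c in 8, and of the regulators at 16 HPI Gabpb1 kept it in 15, Nrf1 in 14 and Tfam in 8. None of these changed sign. The cause of the lost calls was not tested. With residual ribosomal RNA and mitochondrially encoded genes taken out of the total, the members' share was 1.23% in control and 1.28%, 1.28%, 1.21%, 1.26% and 1.28% at 1, 3, 8, 16 and 24 HPI. The regulators were added to these settings after the data had been seen. Depth limits Cox4i2, Cox6a2, Cox6b2 and Cox7a1, whose intervals were among the widest.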
